A study of Mus musculus with 4 samples.

Results

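Cytosolic ribosomal protein genes encode the proteins of the ribosome that works outside mitochondria. They were taken by symbol, as every gene named Rpl or Rps with a number (and at most a letter and a digit after it), Rplp0 to Rplp2 and Rpsa, together with the numbered paralogues ending in l such as Rpl7l1 and Rpl22l1. These were 89 of the 20001 genes named in the site tables, 53 of the large subunit (Rpl and Rplp) and 36 of the small subunit (Rps and Rpsa). Every gene named there has at least 1 listed methylation site by construction, so a ribosomal protein gene without a called site could not be counted. The set is a list of names. No measured value enters its rule, but it was chosen with earlier results of these data known.

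N6-methyladenosine (m6A) was measured at single bases with GLORI, a chemistry that turns unmethylated A into a base read as G while m6A goes on being read as A, so that a position's level is the percentage of its A and G reads that show A. The RNA was polyA-selected RNA of mouse retinal organoids at day 6 of differentiation, grown from an Rx:GFP reporter line with FKBP12F36V-HA, a degradation tag, joined to the C-terminus of Mettl3 at its own locus. The METTL3 protein transfers the methyl group in the main m6A writer of mRNA, and dTAG13 is the small molecule that brings tagged proteins to degradation. The 2 untreated libraries (0 h) and the 2 dTAG13 libraries (125 nM for 8 h) all carry the tag, and all 4 were collected together and share 1 batch entry. The genotype entries name Mettl3, Mettl4, Mettl5 and Mettl6 in turn over the 4 samples, whereas the growth protocol and the series title name METTL3, and METTL3 was used here. No untagged line with dTAG13 was analysed here, so an action of dTAG13 without the tag cannot be told apart from loss of the tagged protein. The labels do not say that the libraries came from separate cultures, so every p-value measures the spread between these samples, which may be technical. With 2 against 2 libraries the smallest p of an exact two-sided permutation test is 0.333.

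Ribosomal protein mRNAs are short, abundant and copied from genes whose expression is kept in balance, since each ribosome takes 1 copy of nearly every protein. Their transcripts typically begin with a C followed by a run of pyrimidines, the 5′ terminal oligopyrimidine (TOP) tract, through which mTORC1 and LARP1 control their translation together. m6A is laid down mainly in long internal exons and near stop codons, and short exons near splice junctions are kept largely free of it, so that ribosomal protein mRNAs are usually described as poor in m6A.

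Of the 11 members with sites listed in all 4 libraries, the start table holds 10. A run of C and T of this kind lies near an annotated start in 4 of them, and none was found in Rpl23, Rpl37a, Rplp0, Rps15, Rps28 and Rps3a1 or at the second start of Rpl10a. The 4 with a run are shown beside Rpl23 and Rps15 without one. Each window is read 5′ to 3′ on the transcript strand from 10 bases before the annotated start, from RefSeq on GRCm38.p6, and capitals mark the run of C and T that begins with C. The windows are chr14:18270967-18270996 (minus strand) for Rpl15, chr7:3704031-3704060 (plus) for Rps9, chr12:28635934-28635963 (minus) for Rps7, chr17:28328461-28328490 (plus) for Rpl10a, chr11:97782420-97782449 (minus) for Rpl23 and chr10:80292421-80292450 (plus) for Rps15.
Rpl15: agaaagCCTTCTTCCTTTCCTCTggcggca
Rps9: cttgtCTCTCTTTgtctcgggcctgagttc
Rps7: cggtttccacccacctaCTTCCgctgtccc
Rpl10a: gCCCCCCCagcggccgcaaactgcagcgcc
Rpl23: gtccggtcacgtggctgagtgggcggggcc
Rps15: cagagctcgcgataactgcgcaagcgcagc
The run begins at position -4 in Rpl15, -5 in Rps9, 8 in Rps7 and -9 in Rpl10a, counted from the annotated start as 1, so none of the 4 annotated starts is itself the first C of the run. A C followed by 4 bases that are each C or T, starting within 10 bases of the annotated start and searched on the transcript strand only, was found in 40 of the 64 ribosomal protein genes that the start table holds (62.5%). The same run was found in 31 of 69 mitochondrial ribosomal protein genes (44.9%) and in 9297 of all 27025 genes of the table (34.4%). The annotated start can lie some bases from the start used, so a window without the run says nothing about the transcript.

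The tables list only called sites, and none in these libraries had under 15 reads, under 5 reads with A or a level under 10.0%. An unlisted position may thus lack the mark, fall short of a limit or have no reads. The 4 libraries, in the order untreated 1, untreated 2, dTAG13 1 and dTAG13 2, which holds for all sets of 4 values below, listed 260741, 272174, 178739 and 201935 sites in genes. Retinal progenitor markers were present, with 7 of 7 listed in every library at a summed coverage of 3814, 4815, 2666 and 3593. Markers of other cells were listed at lower coverage, from 26.0 to 89.7 summed over the mesendoderm list to 431.6 to 634.9 over the telencephalon list, and T (brachyury) and Krt8 were listed in no library. The share that any of these cells had in the values below was not tested, and in bulk RNA fewer cells of a type and less RNA per cell cannot be told apart. Site positions are given as the tables list them: the processing notes name mm10, yet only 109 of the 2713 listings of ribosomal protein sites (4.02%) fell inside the mm10 (GRCm38) interval of their gene, and Rpl15 sites are listed on the other strand, so the build is unsettled and exon, intron and UTR were not assigned.

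Ribosomal protein genes had as many listed sites or more with dTAG13, while all other genes together had fewer. The untreated libraries listed 618 and 690 of their sites and the dTAG13 libraries 699 and 706, 654 ± 50.9 against 702.5 ± 4.95 (SD, n = 2 in each group), a ratio of 1.07. The groups did not overlap, with 9 sites between their nearest libraries (exact two-sided permutation test, p = 0.333, the smallest possible). For all other genes the counts were 260123 and 271484 in the untreated and 178040 and 201229 in the dTAG13 libraries, a ratio of 0.713. The share of genic listed sites that lay in ribosomal protein genes was thus 0.237% and 0.254%, then 0.391% and 0.350% after dTAG13 (exact permutation p = 0.333), and the groups did not overlap.

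The higher count lay in the large subunit genes. Their sites numbered 379 and 412 in the untreated and 447 and 454 in the dTAG13 libraries (ratio 1.14, exact permutation p = 0.333), with no overlap between groups. The small subunit genes had 239 and 278 against 252 and 252 (ratio 0.975, exact permutation p = 1.0), with both dTAG13 values between the untreated ones. Whether the subunits differ was not tested.

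Other lists were set beside them. The 19 other TOP genes, mostly translation factors but also Fau, which encodes a ribosomal protein fused to a ubiquitin-like protein, had 313 and 299 against 299 and 355 sites (ratio 1.07), with overlapping groups. The 24 ribosome biogenesis genes, whose products assemble ribosomes in the nucleolus, had 562 and 640 against 435 and 535 (ratio 0.807), and the 82 mitochondrial ribosomal protein genes had 1086 and 1217 against 912 and 1041 (ratio 0.848). In both of these lists each dTAG13 library lay below each untreated one. A further 206 listed genes bear names of ribosomal protein pseudogenes and held 355 and 376 against 365 and 407 sites. Reads of near-identical copies may have been divided between these and the members, so every count of a ribosomal protein gene shares that uncertainty.

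**Figure D1:**
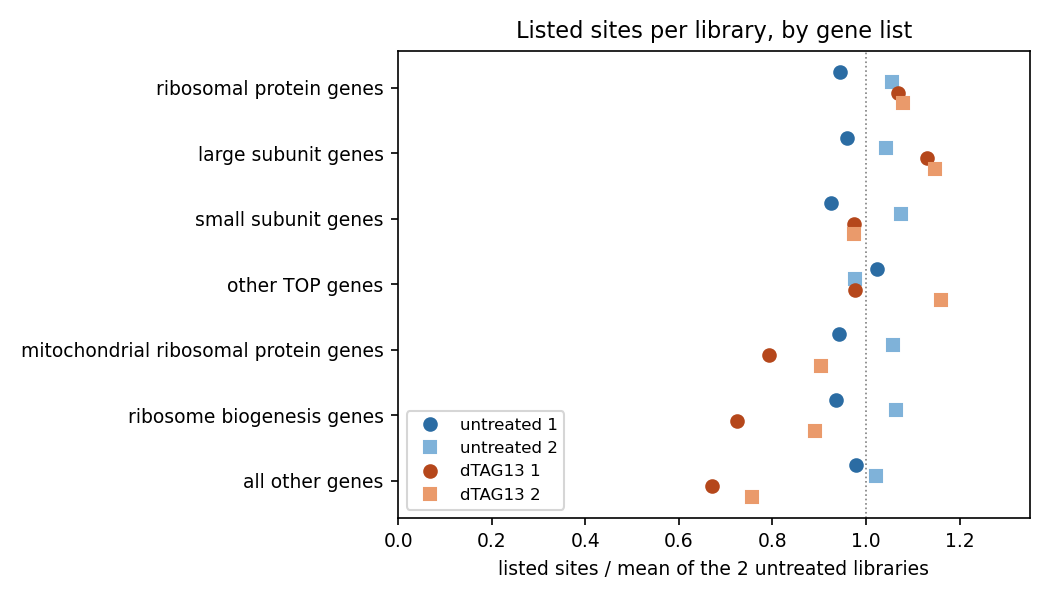
Listed sites of each library divided by the mean of the 2 untreated libraries (x axis, a ratio), for 7 gene lists (y axis). Circles are replicate 1 and squares replicate 2, blue without and orange with dTAG13: ribosomal protein genes lie at a mean ratio of 1.07 with dTAG13 and all other genes at 0.713.

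Coverage differed between the members and other genes, and the ratio moved with it. Gene coverage is a deposited value per gene and library that the tables do not define and that is not scaled to library depth. Reads at listed sites of other genes at levels of 10% to 20% came to a median of 1.08, 1.06, 1.12 and 1.12 times the coverage of their gene, which puts it on the scale of reads per position. Over genes listed in all 4 libraries its median was 689.6, 648.4, 478.6 and 791.0 for the 76 ribosomal protein genes and 98.9, 103, 82.0 and 110 for the others.

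Genes were therefore also compared within classes of mean coverage, a division chosen with the values known. Among genes of coverage 300 to 1000, the 30 members had 215 and 239 against 269 and 280 sites (ratio 1.21), without overlap, and the 1169 other genes had a ratio of 0.957. In the class of 1000 or more the 25 members had 208 and 197 against 216 and 195 sites (ratio 1.01), with overlap, while the 252 other genes had 2874 and 2499 against 2991 and 2903 (ratio 1.10). In that class ribosomal protein genes did not stand above other genes. At 100 to 300 the ratio was 0.936 for 15 members and 0.719 for 4627 other genes, and below 100 it was 1.04 for 6 members and 0.635 for 6396 other genes. The part of coverage in the difference between ribosomal protein genes and all other genes was not tested beyond these classes.

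**Figure D2:**
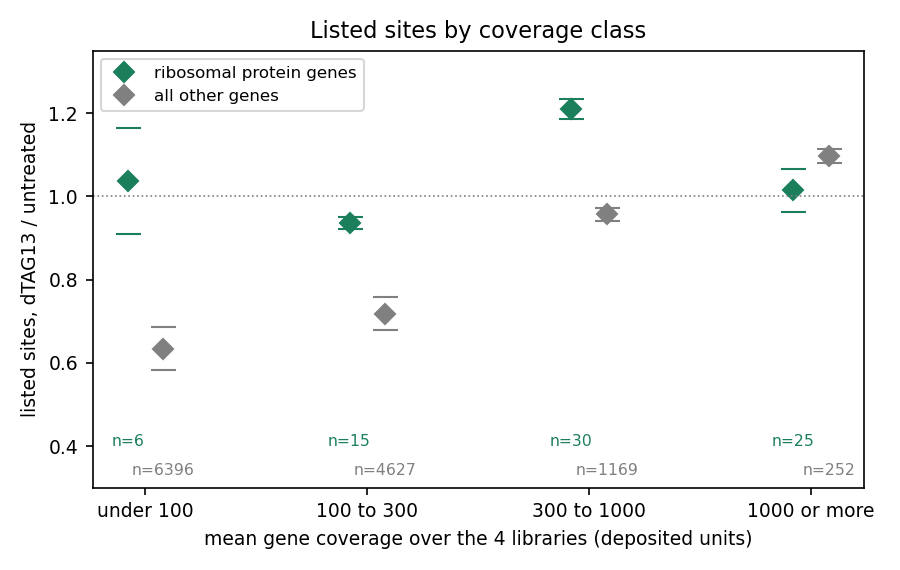
Ratio of listed sites with dTAG13 to those without (y axis; diamonds, group means; dashes, each dTAG13 library over the untreated mean) in 4 classes of mean gene coverage (x axis), for ribosomal protein genes (green) and all other genes (grey), with the number of genes below. Other genes go from 0.635 in the lowest class to 1.10 in the highest, and ribosomal protein genes lie between 0.936 and 1.21.

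Relative to coverage the members had few sites. Per 1000 units of summed coverage listed sites in the members came to 6.63 and 5.99 (untreated) and 10.7 and 6.80 (dTAG13). All other genes had 83.7 and 81.5, then 79.2 and 62.5. The members' ratio was 1.39 (exact permutation p = 0.333), and it was 1.08 without dTAG13 library 1 and 1.70 without dTAG13 library 2. This pattern was not particular to the members. The other TOP genes had 8.24, 7.19, 12.3 and 9.78 (ratio 1.43, without overlap). Ribosomal protein pseudogenes had 3.79, 4.47, 5.65 and 3.66 (ratio 1.13, with overlap). The ratio was 0.860 for ribosome biogenesis genes and 0.889 for mitochondrial ribosomal protein genes. Summed coverage of the members was 93149, 115138, 65280 and 103770, lowest in dTAG13 library 1. Members also had fewer sites per gene than other genes in each coverage class, for example 7.57 against 23.6 without dTAG13 at coverage 300 to 1000 and 8.10 against 10.7 at 1000 or more. The number of listed sites is not corrected for transcript length, which was not compared.

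Individual members differed widely in coverage. The highest mean values were those of Rps16 (9093, from the single library that lists it), Rpl8, a protein next to the peptidyl transferase centre (5851 over 3 libraries), Rps9 (5845), Rpl10, which joins the large subunit late in its maturation (4916), and Rpl10a (4690). The lowest were Rps13 (46.1), Rpl17 (59.8), Rpl10l, a paralogue of Rpl10 known from testis (60.8 over 2 libraries), Rpl34 (61.6), Rps3a2 (62.2 over 2 libraries) and Rps27 (73.9 over 3 libraries). Whether reads of near-identical copies were shared out differently among these genes was not tested.

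The number of sites did not follow coverage. Across the 76 members in all 4 libraries, Spearman's rho between mean coverage and summed listed sites was -0.03, and between coverage and sites per coverage -0.887, where coverage enters both sides. The members' coverage ranked almost alike in both untreated libraries (rho 0.990), and their numbers of sites less so (rho 0.608 between the untreated and 0.706 between the dTAG13 libraries). These values describe genes that share libraries and are not independent replicates.

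Rpl5, which carries 5S RNA into the large subunit and binds MDM2 when free, had the most sites. It had 30 and 34 without dTAG13 and 17 and 22 with it, so that its untreated libraries were both higher. Rpl7l1, a paralogue of Rpl7 that acts in large subunit assembly, had 29, 25, 26 and 18. Rps20 of the small subunit head had 25, 25, 26 and 15. Rpl22, an RNA-binding protein of the large subunit, had 23, 16, 23 and 27, Rps15a had 21, 25, 17 and 24, and Rps3, which lines the mRNA entry channel, had 30, 21, 21 and 15. In these last 5 genes the groups overlapped, in Rpl22 and Rps3 through ties at 23 and 21 sites.

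Per 1000 units of coverage, summed over the libraries, Rps15a (202), Rpl7l1 (189), Rps20 (158), Rpl34 (102), Rpl17 (83.5) and Rpl23 (82.8) had the most sites. Rpl10 (0.610), Rpl37 (1.10), Rps15 (1.12), the stalk protein Rplp2 (1.31), Rps9 (1.45) and Rpl4 (1.86), whose long loop lines the exit tunnel, had the fewest. The first 6 genes had mean coverage of at most 205.3 and the last 6 of at least 2281.

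**Figure D3:**
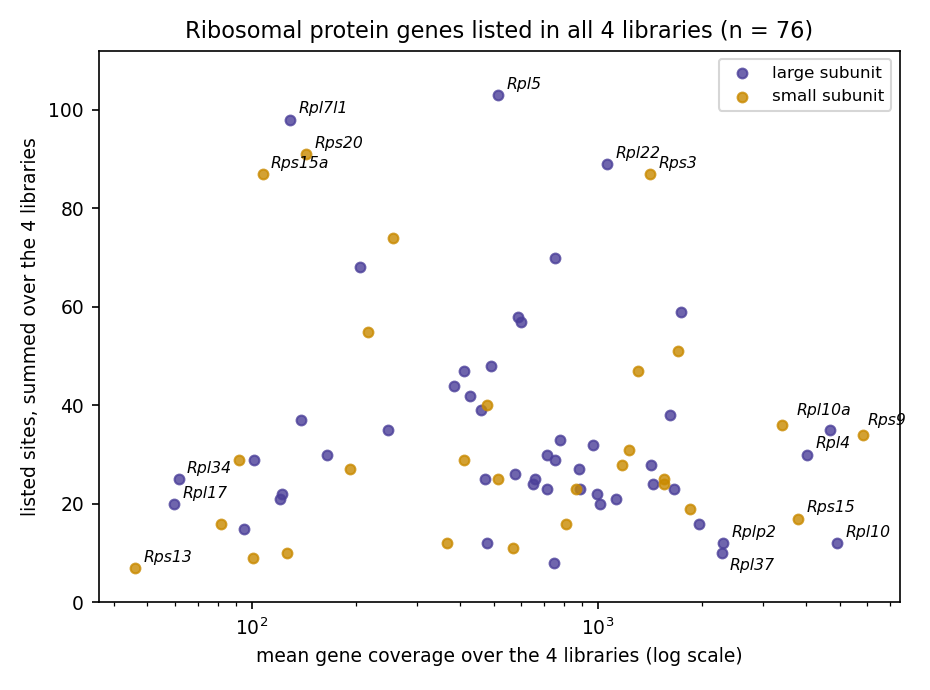
Listed sites summed over the 4 libraries (y axis, sites) against mean gene coverage (x axis, log scale, deposited units) for the 76 ribosomal protein genes listed in every library, each point 1 gene, coloured by subunit. Rpl5 with 103 sites lies highest, and the 4 genes of highest coverage, Rps9, Rpl10, Rpl10a and Rpl4, have 12 to 35 sites.

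In 19 of the 76 members both dTAG13 libraries listed more sites than both untreated libraries (4.53% of 12520 genes did so), and in 9 both listed fewer (44.6% of genes). Of the 19, 13 were large subunit genes: Rpl4, Rpl7, Rpl11, Rpl12, Rpl13a, Rpl14, Rpl23a, Rpl27a, Rpl28, Rpl35, Rpl36, Rpl37 and Rpl37a. The small subunit genes included Rps3a1, Rps9, Rps10, Rps28 and Rpsa. Those with fewer included Rpl5, Rpl10, Rpl30, Rplp0, Rplp2, Rps2, Rps4l and Rps23.

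No single member passed a test of its number of sites. With limma on log2(sites + 1), centred on the median gene of each library, 0 of 76 members and 0 of 12520 genes (0.0%) had a Benjamini-Hochberg adjusted p under 0.05, and 26 members had an unadjusted p under 0.05, against 9.98% of all genes. This test called no gene at all, so it says nothing about stability. The members' median change was 0.64 (log2) against 0.07 over all genes, with 65 of 76 above 0 (55.7% of genes). A rise on this scale was not particular to the members. The median was 0.58 in other TOP genes (17 of 19 above 0) and 0.52 in ribosomal protein pseudogenes (63 of 69). It was 0.42 in ribosome biogenesis genes (17 of 24) and 0.29 in mitochondrial ribosomal protein genes (58 of 78). Without centring the members' median was 0.12 against -0.45 for all genes, 33 of the 76 lay below 0 (79.0% of genes), and 8 had an unadjusted p under 0.05 (18.5% of genes).

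A count test was added after the data were seen, with edgeR's quasi-likelihood method on genes with at least 10 sites in sum. Scaled by TMM it called 0 of 76 members at an adjusted p under 0.05, against 0.522% of 12449 genes, and 21 at an unadjusted p under 0.05 (11.6% of genes), all higher with dTAG13. These 76 are not wholly the members above, since Rpl8, for example, unlisted in untreated library 1, enters with 0 and 2 sites against 6 and 6 (edgeR TMM adjusted p = 0.186). Unscaled it called 0 members, with 5 at an unadjusted p under 0.05 (20.7% of genes).

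Among members listed in all 4 libraries, the largest centred limma changes toward more sites were in Rpl14, Rpl29, Rps9 and Rpl35. Rpl14 had 1 and 4 sites without dTAG13 and 14 and 6 with it, a centred log2 change of 2.22 ± 0.56 (SE, limma adjusted p = 0.437; edgeR TMM adjusted p = 0.105). Rps9, which lies near the mRNA entry of the small subunit, had 3 and 7 against 16 and 8 (log2 change 1.65, limma adjusted p = 0.437). Both genes had more sites in each dTAG13 library.
Rpl29 had 1 and 9 against 9 and 11 sites, and Rpl35 6 and 2 against 7 and 10. The value of Rpl29 rested on untreated library 1, and untreated library 2 equalled dTAG13 library 1. Rpl12, a protein at the base of the stalk, had 5 and 5 against 11 and 11, and Rpsa, also known as the laminin receptor, had 4 and 8 against 13 and 11.

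When untreated library 2 was left out, limma called Rpl14 (adjusted p = 0.008) and Rpl29 (adjusted p = 0.0071) among 0.152% of genes, and without untreated library 1 it called Rpl28 (adjusted p = 0.0493) among 0.216% of genes. edgeR with TMM called none of the members with either library left out. Its median log2 change over the members was 0.77 without untreated library 2 (0.014 over all genes). Without untreated library 1 it was 0.71 (0.0016 over all genes). In these fits 1 group has a single library, which is assumed to vary like the other group.

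Toward fewer sites, Rps2, which helps to set decoding accuracy, had 8 and 10 against 3 and 3 (log2 change -0.79 ± 0.34 SE, limma adjusted p = 0.491), and Rpl10 had 6 and 3 against 2 and 1. In each of these the dTAG13 libraries were both lower, as in Rps4l, a paralogue of Rps4x, with 19 and 18 against 7 and 11.
Among the stalk genes, Rplp0, the base that holds the P1 and P2 proteins, had 11, 14, 9 and 4 sites. Rplp1 had 1, 2, 2 and 3, and Rplp2 had 4, 4, 1 and 3. Of the other paralogues, Rps27l, a p53 target, had 5, 5, 3 and 12 sites and Rpl22l1 had 3, 8, 6 and 5, with overlapping groups in both. Rpl39l was listed in untreated library 2 and dTAG13 library 2 with 3 and 1 sites, Rpl10l in the same libraries with 1 and 2, and Rpl3l, known from striated muscle, in dTAG13 library 2 with 2.

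**Figure D4:**
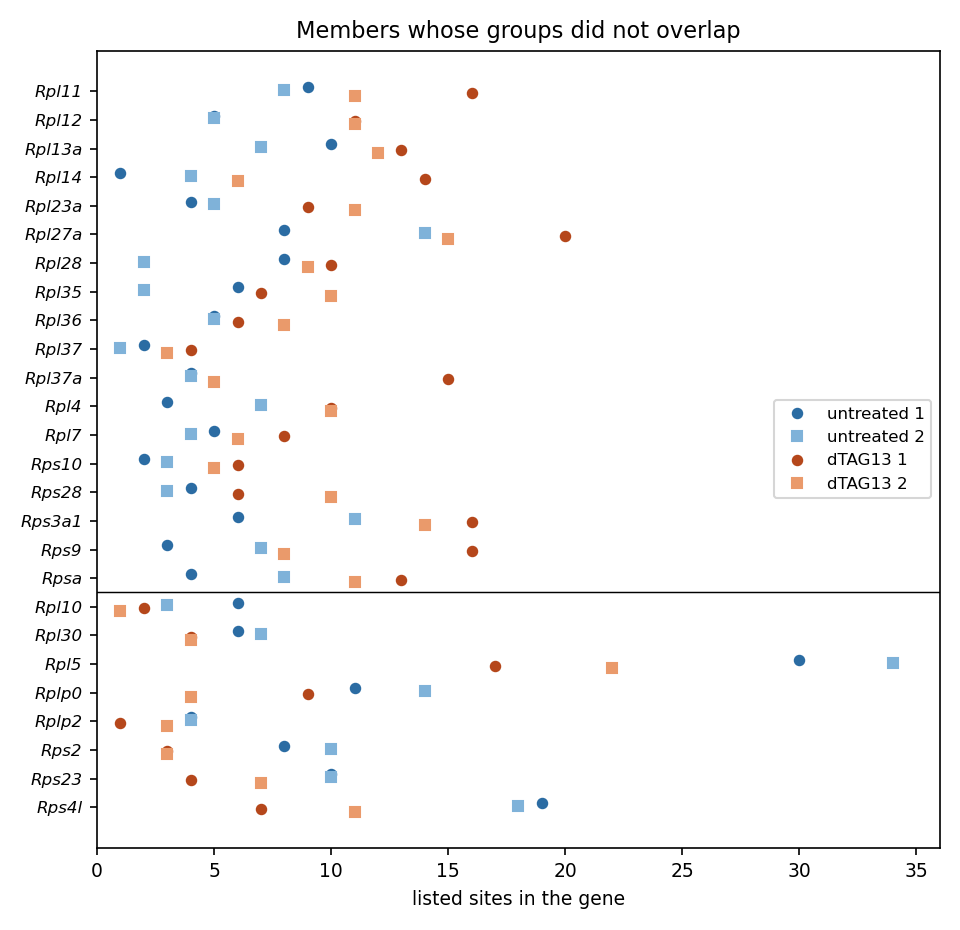
Listed sites per library (x axis, sites) in ribosomal protein genes whose untreated (blue) and dTAG13 (orange) libraries did not overlap, those with more sites with dTAG13 above the line and those with fewer below it; 2 such genes are not drawn. Rpl5 lies farthest right, at 30 and 34 (untreated) and 17 and 22 (dTAG13), and most other genes hold under 20 in every library.

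Most positions were listed once. The 4 libraries together listed 2348 different positions in ribosomal protein genes, and 2053 of them (87.4%) appeared once. A further 240 (10.2%) were listed by 2 libraries, 40 (1.70%) by 3 and 15 (0.639%) by each of the 4. In all other genes the shares were 91.4%, 7.77%, 0.725% and 0.145%. The members thus had a larger share of positions in 3 or 4 libraries than all other genes, beside their higher coverage, whose part was not tested. This was not particular to the members, since other TOP genes had 1.38% in 3 and 1.38% in 4 libraries. Mitochondrial ribosomal protein genes had 1.30% in 3 and 0.027% in 4.

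For sites with at least 50 reads, 14.6% of the 536 ribosomal protein sites of untreated library 1 were also listed in untreated library 2 (Wilson 95% interval 11.8% to 17.8%). In the dTAG13 libraries 11.0% (8.63% to 13.9%) and 13.2% (10.6% to 16.4%) of them were listed. Of the 587 sites of untreated library 2, 13.1% (10.6% to 16.1%) were listed in untreated library 1 and 12.3% (9.85% to 15.2%) and 11.9% (9.55% to 14.8%) in the dTAG13 libraries. All these intervals overlap, and they cover counting error only, since reads may be PCR copies.

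The mean recovery in a dTAG13 library was 0.878 times that in the other untreated library for ribosomal protein sites and 0.556 times for sites of all other genes. In other genes 11.1% of the sites of untreated library 1 were listed again in untreated library 2 and 5.99% and 6.37% in the dTAG13 libraries. The same ratio was 1.05 for other TOP genes and 0.573 for mitochondrial ribosomal protein genes. The members' ratio was 0.964 at 200 or more reads and 0.631 among sites at 40% or more, of which untreated library 1 had only 30. With dTAG13 sites as reference the order of the lists turned: recovery in an untreated library was 0.939 times that in the other dTAG13 library for the members and 1.18 times for all other genes. The difference between lists was not tested.

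Listed sites of ribosomal protein genes had low levels. Their median level was 16.4% and 16.3% untreated and 16.4% and 16.4% after dTAG13, 0.067 percentage points apart in the mean (exact permutation p = 0.667), whereas the medians of all other genes were 28.2% and 27.0% and then 29.4% and 29.4%. Between 60.8% and 63.3% of the members' listed sites lay at 10% to 20% in the 4 libraries, against 32.7% to 35.7% in other genes. Low levels were not particular to the members. The other TOP genes had medians of 15.6%, 15.3%, 15.1% and 16.4%, with 62.9% to 68.6% of their sites at 10% to 20%. A site at 10% reaches 5 A reads only with 50 reads, and the members' coverage was higher. Whether their sites would have these levels at the coverage of other genes was not tested.

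Members' sites at higher levels sat on shallower positions. Sites at 10% to 20% numbered 391, 427, 425 and 447, those at 40% to 90% 65, 65, 66 and 77, and those at 90% or more 14, 26, 26 and 32. Groups overlapped at 10% to 20%, did not at 40% to 90%, and shared the value 26 at 90% or more. Median reads at a site divided by the coverage of its gene were 0.514, 0.433, 0.551 and 0.541 at 10% to 20% and 0.200, 0.112, 0.178 and 0.175 at 90% or more. In other genes the values went from 1.08, 1.06, 1.12 and 1.12 to 0.421, 0.422, 0.435 and 0.401. Of pairs of adjacent listed sites, 23.0%, 23.2%, 23.3% and 21.0% lay within 10 bases in the members and 17.3% to 19.1% in other genes. These shares were not particular to the members. Mitochondrial ribosomal protein genes had 21.1% to 23.7% and ribosomal protein pseudogenes 22.5% to 29.8%. Other TOP genes had 17.3% to 20.0% and ribosome biogenesis genes 17.0% to 20.9%.

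Sites that both untreated libraries list were rarely high. There were 84 in ribosomal protein genes, of which 7 had a mean level of at least 40% (8.33%) and 0 of at least 90%. Of the 25002 such sites in other genes, 9143 (36.6%) had at least 40% and 2004 at least 90%. Both dTAG13 libraries shared 78 sites in the members, 6 of them at 40% or more.

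The 7 sites were in Rpl22l1, Rpl26, Rpl34, Rpl7l1 (a pair), Rps4l and Rps4x. At chr3:28861533 in Rpl22l1 (plus strand) the level was 43.0% of 186 reads and 41.1% of 185 reads in the untreated libraries and 26.2% of 252 reads in dTAG13 library 2, and it was not listed in dTAG13 library 1. At chr3:130523873 in Rpl34 (minus strand) it was 42.0% of 100 and 43.1% of 225 reads. The untreated libraries were close to each other at these sites.
At the other 5 sites they were far apart. Rps4x at chrX:101232533 had 52.6% and 100%, Rpl26 at chr11:68795349 had 37.2% and 57.1%, and Rpl7l1 at chr17:47086353 had 17.6% and 97.8%. Rps4l at chr6:148256547 had 100% of 24 reads and 23.9% of 46 reads, and Rpl7l1 at chr17:47085078 had 29.5% and 86.7%. Of the 7 only the Rpl22l1 site was listed in a dTAG13 library. The 6 sites that the dTAG13 libraries shared at 40% or more, in Rpl14, Rpl23, Rpl29, Rps20 and Rps3a1 (a pair), were in turn listed in neither untreated library.

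The 15 sites listed in all 4 libraries lay in 11 genes, and their level did not differ detectably between groups. Untreated libraries had a median of 13.1% and 15.5% and dTAG13 libraries of 14.2% and 13.1%. The mean difference was -0.692 percentage points (exact permutation p = 0.667) and became 0.548 without untreated library 2. The 1178 sites of other genes that all 4 libraries list with at least 20 reads in each had medians of 18.1%, 17.8%, 18.0% and 17.6%. A site had to be listed after dTAG13 to enter, so sites that fell below the limits are not among them. In a quasi-binomial model of A and G reads with dispersion moderated by limma, 0 of the 15 sites had a Benjamini-Hochberg adjusted p under 0.05 (2.28% of 2321 sites in the fit, which holds genic sites and those outside genes), and 1 had an unadjusted p under 0.05 (9.35% of sites). In the same model by gene 0 of 11 members were called (4.53% of 1016 genes) and 0 had an unadjusted p under 0.05 (13.9% of genes). Both dTAG13 libraries were higher at 3 sites (17.8% of sites) and lower at 3 (19.4%).

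Rpl10a, a large subunit protein of the L1 stalk, had 3 of these sites, all deep. At chr17:28548363 the level was 11.2% of 4072, 10.0% of 5567, 13.9% of 3130 and 12.3% of 3867 reads (unadjusted p = 0.0348, quasi-binomial adjusted p = 0.440), both dTAG13 libraries being higher. At chr17:28548370, 7 bases on, it was 13.9%, 15.6%, 14.0% and 15.2%, with overlapping groups. At chr17:28549566, the deepest with 10625 to 17996 reads, it was 10.4%, 11.1%, 10.1% and 10.3%, both dTAG13 libraries being slightly lower.

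Rps9 at chr7:3707398 had 13.1% of 15774, 12.1% of 16198, 13.7% of 10443 and 15.9% of 11739 reads, and both dTAG13 libraries were higher (quasi-binomial adjusted p = 0.547). Rps15, whose tail reaches the decoding site, had 17.9%, 20.4%, 16.5% and 17.1% at chr10:80129886 on 4060 to 7291 reads (adjusted p = 0.653, same model), and both dTAG13 libraries were lower. Rps28 at chr17:34042064 had 11.4%, 12.02%, 15.9% and 12.8% on 655 to 1102 reads. There the dTAG13 libraries were again both higher, by 2.65 percentage points on average.

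Rplp0 had a site at chr5:115701546 with 13.9%, 23.5%, 11.7% and 13.1% on 460 to 637 reads. Its mean difference, -6.37 percentage points, rested on untreated library 2, although both dTAG13 libraries were lower (quasi-binomial adjusted p = 0.675). Its other site, at chr5:115700613, had 12.8%, 12.8%, 16.5% and 11.9%, with overlapping groups. Rps7, a small subunit protein mutated in Diamond-Blackfan anaemia, had the highest level, 36.7% of 215 reads, in dTAG13 library 1 at chr12:28683811, where the other libraries had 24.5%, 21.2% and 20.5%. Its second site, 5 bases on, had 20.3%, 19.7%, 20.5% and 15.6%.

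The other 5 sites had overlapping groups. Rpl15, also mutated in Diamond-Blackfan anaemia, had 18.9%, 20.2%, 21.9% and 16.3% at chr14:4199372. Rpl3, which reaches into the peptidyl transferase centre, had 13.1%, 11.1%, 12.2% and 11.3% at chr15:79965893, and Rpl23 had 11.1%, 15.5%, 12.8% and 11.8% at chr11:97668940. Rps3a1 had 10.2%, 16.4%, 14.6% and 14.5% at chr3:86046555, and Rpl37a had 11.95%, 10.9%, 14.2% and 10.9% at chr1:72750933. All levels are not corrected for A left unconverted, which in these genes was near 5% of A, so a level near 10% is only a few percentage points above that background.

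**Figure D5:**
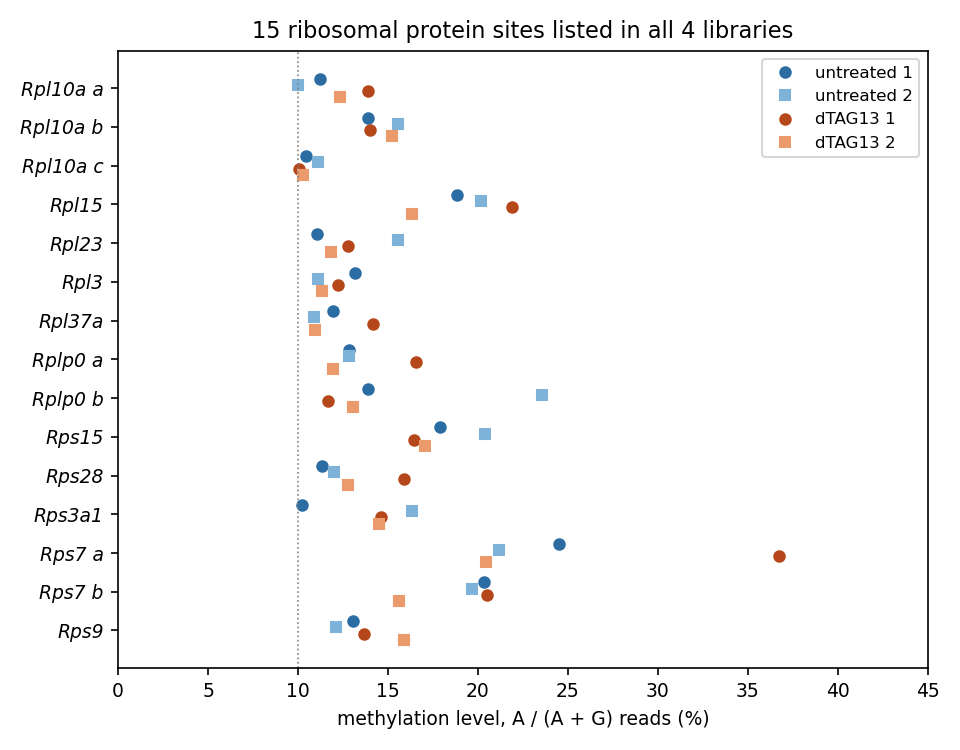
Methylation level (x axis, percent of A among A and G reads) of the 15 ribosomal protein sites listed in all 4 libraries (y axis; letters number sites of 1 gene), with blue points for untreated and orange for dTAG13 libraries; the dotted line is the 10% limit of the tables. Apart from the Rps7 site at 36.7% in dTAG13 library 1, every value lies between 10.0% and 24.5%.

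That background was measured as the conversion rate of each gene, the percentage of A read as G. Over the 76 members the untreated medians were 94.97% and 95.77% and the dTAG13 medians 95.91% and 95.66% (difference 0.419 percentage points, exact permutation p = 0.667), with overlapping groups. Other genes had 95.85% and 96.23% and then 96.87% and 96.75%, both dTAG13 libraries being higher. With limma on the log2 odds, 0 of 76 members (0.0% of 12520 genes) had an adjusted p under 0.05 and 3 had an unadjusted p under 0.05 (12.3% of genes), Rps6, Rps29 and Rpl28. The rate was higher in both dTAG13 libraries in 26 members (40.9% of genes) and lower in both in 4 (6.05% of genes). In Rps6, the substrate of S6 kinase, conversion was 92.2%, 95.1%, 97.5% and 98.3%, both dTAG13 libraries being higher (limma adjusted p = 0.369).

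Coverage of the members was close to that of other genes in its change. With limma on log2 coverage, centred per library, 0 of 76 members (0.0% of 12520 genes) had an adjusted p under 0.05 and 2, Rpl17 and Rps19, an unadjusted p under 0.05 (12.7% of genes). The median change was -0.15 (log2) for the members and -0.07 for all genes, and with quantile normalization it turned to 0.13 and -0.01. In 57 of 76 members the change lay below 0 (56.7% of genes), but in 14 with quantile normalization (51.4% of genes), and groups were fully separated toward lower coverage in 35 (29.2% of genes) and toward higher coverage in 8 (17.0% of genes). Of the 19 other TOP genes limma called 0 in either direction. Their median change was -0.35 with 19 below 0 after centring, and -0.07 with 11 below 0 after quantile normalization.

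The changes ran from -0.48 in Rpl4 to 0.61 in Rps12l1. Rpl4 had a coverage of 4439, 5119, 2747 and 3796 (log2 change -0.48 ± 0.20 SE, limma adjusted p = 0.394), lowest in both dTAG13 libraries. Rps9 (-0.42), Rpl13a (-0.40), part of the GAIT translation control complex, and Rpl7 (-0.39) followed. Rps19, the gene mutated most often in Diamond-Blackfan anaemia, had 707.3, 650.8, 791.0 and 1093 (0.54 ± 0.20 SE, limma adjusted p = 0.374), and Rpl17, at the exit tunnel, had 48.1, 51.5, 59.5 and 80.2 (0.55 ± 0.20 SE, limma adjusted p = 0.367). In both of these the dTAG13 libraries were the higher ones, as in Rpl38 with 399.6, 423.4, 510.9 and 584.7. Rps12l1 had 73.6, 90.2, 141.5 and 97.3, highest in dTAG13 library 1.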

How the data were processed

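Per the labels, groups were read from the sample titles: 2 untreated and 2 dTAG13 libraries. The authors deposited 1 table of called sites per library, with counts of A and G reads and of A reads, the level as a fraction, the gene's conversion rate as a fraction, a gene coverage signal and a p-value; the adjusted p-values listed reach 0.00401. The deposited counts and signal are not normalised. Per the submitters' processing notes the build is mm10. Aligner and caller are not given in the sources used here. Median reads at a listed ribosomal protein site were 214.5, 179, 173 and 239.5 (untreated 1 and 2, dTAG13 1 and 2).

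Sites, recurrence and recovery (50 reads or more in the reference library) were counted from the tables. Numbers of sites, as log2(sites + 1), coverage and conversion were tested with limma 3.58.1 in R 4.3.3 over the 12520 genes in all 4 libraries. Levels were tested by quasi-binomial models at sites with 20 reads or more in each library. P-values were Benjamini-Hochberg adjusted over each whole table. edgeR 4.0.16 on numbers of sites was an added alternative. Both were checked on simulated data. Single values had exact permutation tests in scipy 1.17.1.

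Members, lists and tests were chosen with earlier results of these data known. Genes were named by extremes of coverage (6 each way), of sites (6) and of sites per coverage (6 each way), by shared sites, by untreated sites at 40% or more, by the 4 largest changes each way, and as stalk genes and paralogues. Further genes with separated groups, Rpl12, Rpl28, Rps6 and Rps29 among them, were named after their values were seen. Some members that these rules name are not reported here. Alternatives covered read and level limits, pseudocounts, centring, normalization, tests and left-out libraries.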

Additional observations from a re-analysis of the deposited data

How the results depend on the processing

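The ratio of listed ribosomal protein sites was 1.07 and ran from 1.02 to 1.14 when 1 library was left out. It was 0.936 among members of coverage 100 to 300, against 1.01 to 1.21 in the other coverage classes, a split chosen after seeing the data. The ratio per coverage (1.39) ran from 1.08 to 1.70 without 1 library. The difference in median level of the 15 shared sites (-0.692 percentage points) turned to 0.067 over all listed sites and ran from -1.93 to 0.548 without 1 library. The recovery ratio (0.878) was 0.964 at 200 reads, 0.631 at levels of 40% or more, and 0.846 to 0.910 without 1 dTAG13 library. Members called by limma for sites numbered 0, and 0 to 2 without 1 library. Pooled Fisher's exact tests, which leave out the spread between libraries, called 4 of 15 sites and 2 of 11 genes where the quasi-binomial model called 0. Over all features the pooled tests called 531 of 2321 sites and 428 of 1016 genes, so these calls do not set the members apart. The median coverage change (-0.15) turned to 0.13 under quantile normalization and ran from -0.22 to -0.08 without 1 library, and the conversion difference (0.419 points) from 0.017 to 0.821. Except where a value or the setting shows it, the cause was not tested.

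Replicate numbers did not pair the samples, since same-numbered libraries deviated with r = -0.004 for sites, 0.002 for coverage and 0.008 for conversion over 12520 genes. With the replicate block, 0 members were called for sites, coverage, conversion or level, and 25 in place of 26 had an unadjusted p under 0.05 for sites. Values of single members and sites under the alternatives were set against the standard error of the main fit, or by direction where the model gave none. Of these, 1153 stayed within the standard error or kept their direction, and 9 passed the threshold. The other 180 moved by more than the standard error or, for levels, changed direction. Untransformed conversion rates were set against the standard error of the log2 odds, an unlike scale, so their agreement says little. Since 5 A reads and 10.0% were the lowest values listed, lower levels cannot be seen.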
